A study of Mus musculus with 2 samples.

Results

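The imprinted domain from Dlk1 to Dio3 lies on distal mouse chromosome 12, and CTCF binding across it was examined in R1/E mouse embryonic stem cells (ESCs). The domain was defined by its 6 genes Dlk1, Meg3, Rtl1, Rian, Mirg and Dio3, out of 37273 genes of the GENCODE M1 annotation. It runs from the start of Dlk1 to the end of Dio3 with 100 kb on each side, chr12:110591033-111619307 (mm9). Of the 33788 CTCF peaks in the deposited list, 14 have their summit in this region, and they are called S1 to S14 here in order of position. The study generated an ESC line in which a stably integrated bacterial artificial chromosome (BAC) expresses CTCF with a C-terminal tag containing GFP. Tagged CTCF was immunoprecipitated with a goat GFP-antibody in 1 library, and goat IgG served as control in the other. Both libraries came from ESCs of this line, crosslinked with 1% formaldehyde and sheared to about 500 bp. Neither library has a replicate.

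Several properties of this model bear on the values. The antibody sees only the tagged CTCF made from the BAC, not the endogenous protein, and resistant clones had been sorted for GFP. The labels call the control both an IgG isotype control and input DNA, and it is read as IgG here. The CTCF library holds 8391191 tags of 35 bp and the IgG library 7988889, which is 3.16 and 3.01 tags per kb of the genome, so small differences were not detectable at this depth. The tags do not tell the maternal from the paternal copy, DNA methylation was not measured here, and ChIP tags give no RNA levels with which to check the cells against ESC markers.

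Imprinted genes are expressed from a single parental copy. In this domain the paternal copy expresses the protein-coding genes, Dlk1, which encodes a membrane protein of the Notch ligand family, Rtl1, a retrotransposon-derived gene needed in the placenta, and Dio3, which encodes a deiodinase that inactivates thyroid hormone. The maternal copy expresses the noncoding RNAs Meg3, Rian, which hosts small nucleolar RNAs (snoRNAs), and Mirg, which hosts microRNAs. A differentially methylated region between Dlk1 and Meg3 controls the whole cluster. CTCF is a zinc finger protein that acts as an insulator and anchors chromatin loops together with cohesin. Its binding at some motifs with a CpG is blocked by methylation, as at the H19 control region, and loop anchors often carry motifs that point toward each other.

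A CTCF motif lay within 150 bp of 9 of the 14 summits, at a motif p of at most 1e-05. The 9 are shown because the motif directions described below rest on them, each read on its motif strand, with the 19 bases of the motif in capitals and 6 bases of mm9 on either side in lower case.
S2: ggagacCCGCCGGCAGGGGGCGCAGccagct
S4: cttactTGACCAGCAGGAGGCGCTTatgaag
S5: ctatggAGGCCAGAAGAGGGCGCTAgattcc
S6: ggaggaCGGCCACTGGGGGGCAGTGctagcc
S7: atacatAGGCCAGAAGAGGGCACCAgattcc
S10: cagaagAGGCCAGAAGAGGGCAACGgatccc
S12: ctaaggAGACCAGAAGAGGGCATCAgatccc
S13: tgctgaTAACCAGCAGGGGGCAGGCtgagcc
S14: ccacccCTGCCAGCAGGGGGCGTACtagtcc

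The consensus of the matrix was TGGCCACCAGGGGGCGCTA. The motifs at S5, S7, S10 and S12 share the 12 letters CCAGAAGAGGGC in columns 4 to 15 of the motif, which no other of the 9 has. Positions on chromosome 12 are 110676114 to 110676132 on the plus strand for the motif of S2, the site nearest to Dlk1, and 111269714 to 111269732 on the plus strand for that of S10, the tallest site.

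The surroundings of S2 and S10 differ in base composition. The 299 bases around S2 (chr12:110675962-110676260, mm9, plus strand) are shown first and those around S10 (chr12:111269563-111269861, plus strand) second, with the motif in capitals.
S2 window: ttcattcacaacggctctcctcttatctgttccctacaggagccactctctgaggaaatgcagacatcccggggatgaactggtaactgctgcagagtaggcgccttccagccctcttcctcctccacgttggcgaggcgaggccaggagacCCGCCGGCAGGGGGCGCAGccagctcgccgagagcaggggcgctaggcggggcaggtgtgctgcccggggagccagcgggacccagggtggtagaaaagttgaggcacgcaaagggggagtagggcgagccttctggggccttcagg
S10 window: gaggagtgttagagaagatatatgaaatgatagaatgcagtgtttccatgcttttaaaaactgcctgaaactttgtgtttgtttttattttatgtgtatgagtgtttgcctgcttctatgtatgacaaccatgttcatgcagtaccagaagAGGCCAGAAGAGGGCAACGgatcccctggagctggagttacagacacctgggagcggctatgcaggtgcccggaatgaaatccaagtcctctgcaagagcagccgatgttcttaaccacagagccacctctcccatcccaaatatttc

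Within 150 bp of the summit, S2 had a GC content of 64.5% and 17 CpG dinucleotides, more CpGs than at 98.5% of all summits. S13 was richer still, with 65.8% GC and 22 CpGs. At S10 the GC content was 45.5% with 4 CpGs, close to the medians of 46.2% and 3 over all 33756 summits on chromosomes 1 to 19, X and Y. Over the 14 sites the median was 48.8% GC with 6 CpGs. Inside the motif itself, 6 of the 9 motifs held a CpG (66.7%), against 39.6% of the 24843 summit motifs of the genome. The first share rests on only 9 motifs, and the difference was not tested. The motif of S2 holds 3 CpGs, and those of S7, S12 and S13 hold none.

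No CTCF summit lay between the start of Dlk1 and the end of Mirg, which holds 5 of the 6 genes. Of the 14 summits, 2 were upstream of Dlk1, 9 between Mirg and Dio3 and 3 downstream of Dio3. All 14 were intergenic. From S4 to S10 they formed a group, 7 summits spaced over the stretch that begins 498.1 kb and ends 578.7 kb from the Dlk1 start, with no gene of the annotation between them. The distance from S2 to S3 was 312672 bp, and it contains Dlk1, Meg3, Rtl1, Rian and Mirg. Among 33736 distances between neighbouring summits of the genome it ranked 1522, at a percentile of 95.5, and on chromosome 12 it ranked 82 of 1297. The next longest distances of the domain were 214318 bp from S10 to S11 and 200328 bp from S3 to S4, against a genome median of 25632 bp.

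**Figure D1:**
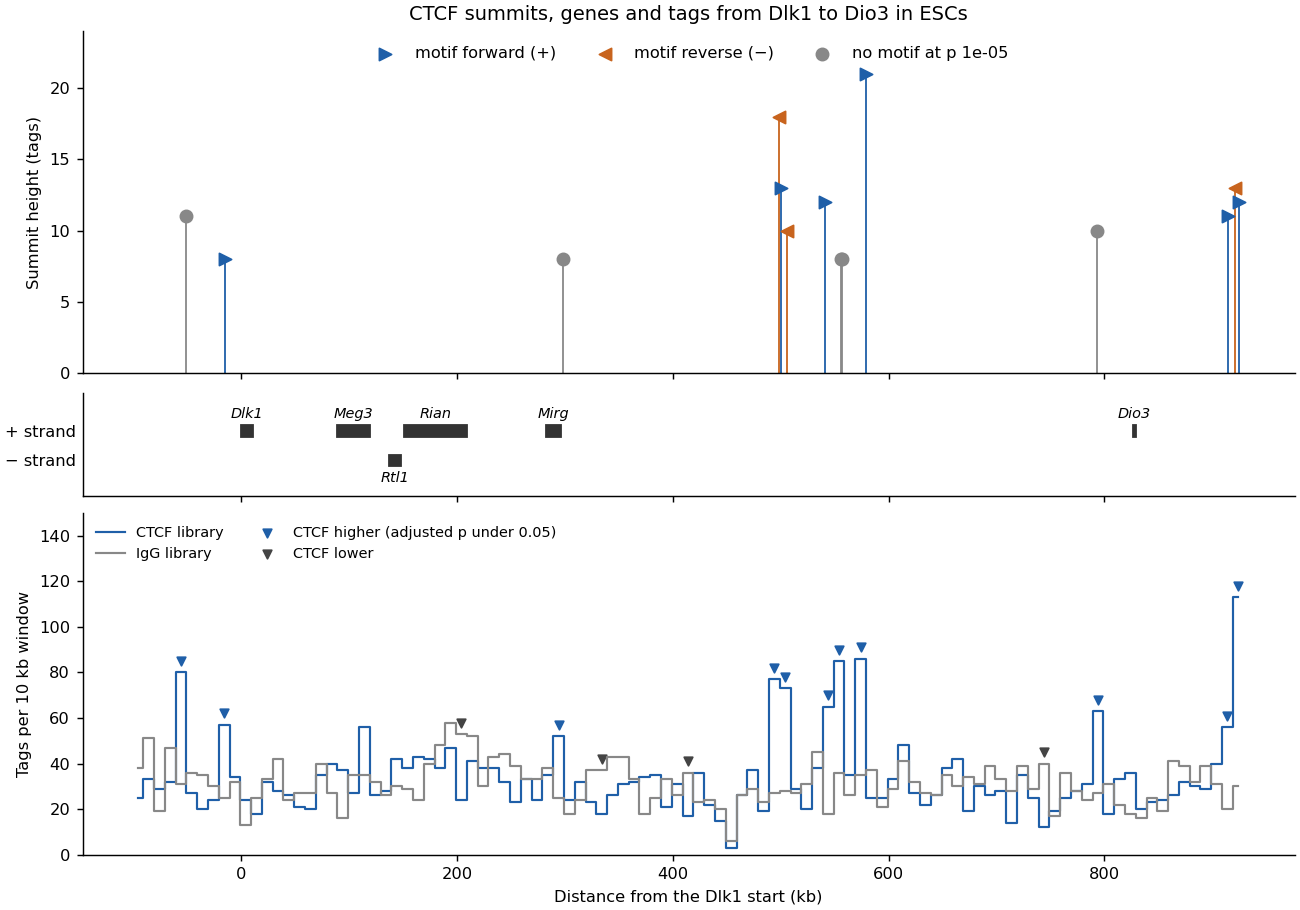
CTCF summits, genes and tags over the domain, by distance from the Dlk1 start in kb. Top, height of each of the 14 summits in tags, with the marker giving the motif strand; middle, the 6 genes by strand; bottom, tags per 10 kb window in the CTCF and IgG libraries, with windows past an adjusted p of 0.05 marked. No summit stands over Dlk1, Meg3, Rtl1, Rian or Mirg, and the tallest, 21 tags, stands 578.7 kb from the Dlk1 start.

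Summit height, the number of overlapping extended tags in the deposited summit file, was 8 to 21 in the domain with a median of 11, against 13 over all summits. Above that genome median stood 2 of the 14, against 14723 of all 33756 summits. S10, at position 111269712 and 247566 bp upstream of Dio3, was the tallest with 21 tags and a MACS score of 280.76. The score is −10 times the log10 of the p-value that the peak caller gave, and the lowest in the list is 50. By score, 5 of the 14 stood above the genome median of 116.96, against 16874 of all 33756 summits. Around S10, 30 CTCF tags stood against 3 IgG tags within 150 bp, a ratio scaled by library totals of 9.52 (exact 95% interval 2.96 to 48.8). These ratios are a description, since the peaks were called from the same tags.

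S4, at position 111189111 and 215920 bp past the start of Mirg, followed with a height of 18, a score of 149.29 and 19 CTCF tags against 0 IgG tags, at least 6.03-fold higher when 0 is set to the 3 counts it allows in 1 library. Its neighbour S5, 2230 bp away, had a height of 13 and 14 CTCF tags against 0, with a lower limit of the ratio of 3.16. S13, 94531 bp downstream of the Dio3 start, also reached 13, with 13 tags against 0 and a lower limit of 2.90. Their intervals of CTCF tags overlap, 11.4 to 29.7 at S4, 7.65 to 23.5 at S5 and 6.92 to 22.2 at S13. S7 and S14 both had a height of 12. Within 150 bp, S7 had 16 CTCF tags against 1 IgG tag, a ratio of 15.2 (2.37 to 639), and S14 had 19 against 2, a ratio of 9.04 (2.18 to 80.1).

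The sites nearest to the genes were lower. S2, at position 110676111, was the summit nearest to the starts of Dlk1, 14922 bp away, and of Meg3. It had a height of 8, the lowest score of the domain, 55.49, and 8 CTCF tags against 0, with a lower limit of the ratio of 1.63. S3, at position 110988783, was nearest to the starts of Rtl1, Rian and Mirg. It lay 15592 bp from the Mirg start and 2695 bp from the start of the microRNA gene AC121784.5. S3 had a height of 8 with 11 tags against 0, and the lower limit of the ratio was 2.39. The site nearest to Dio3 was S11, at position 111484030 and 33248 bp upstream. It had a height of 10 and 10 tags against 1, a ratio of 9.52 (1.35 to 413). Over the whole peak of S11 stood 25 tags against 6, a ratio of 3.97, against 9.43 over the peaks of all 14 sites. S6 and S9 had the same score, 60.28, the next lowest after S2. At S6 stood 10 tags against 1, a ratio of 9.52 (1.35 to 413), and at S9 stood 9 against 1, a ratio of 8.57 (1.19 to 376).

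The remaining sites were S1, with 13 CTCF tags against 1 IgG tag, S8, with 8 against 0, and S12, with 14 against 0. Counted over all 14 summits, 194 CTCF tags stood against 10 IgG tags, a ratio of 18.5 (9.83 to 39.1), and the ratio over all summits of the genome was 14.3 (14.2 to 14.5), inside that interval.

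**Figure D2:**
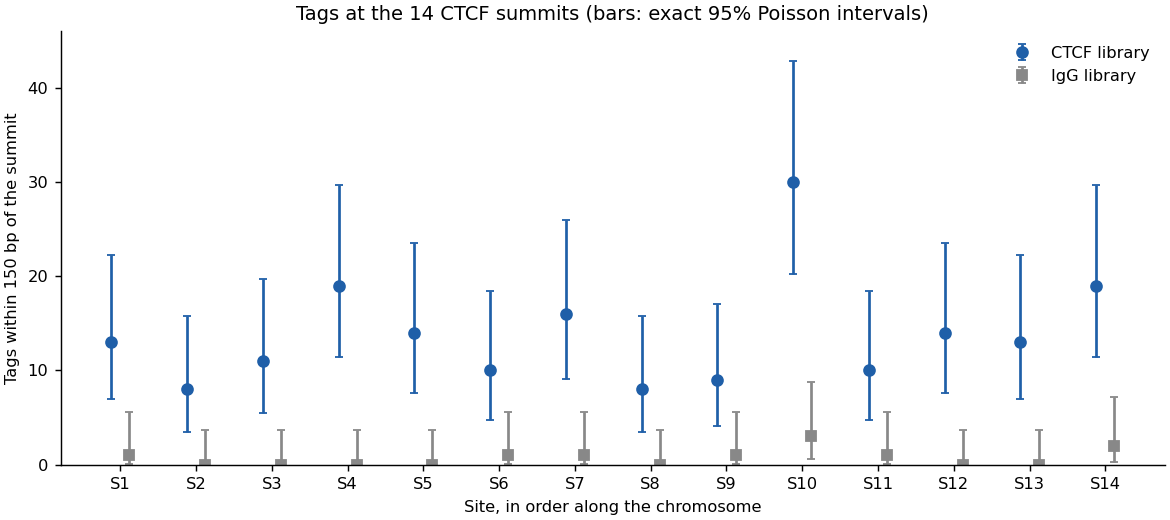
Tags within 150 bp of each of the 14 summits in the CTCF library (circles) and the IgG library (squares), 1 library each, with exact 95% Poisson intervals for counting error. The CTCF library holds 8 to 30 tags at a site and the IgG library 0 to 3, and S10 is the highest in both.

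The share of summits with a motif was 9 of 14 or 64.3% (95% Wilson interval 38.8 to 83.7), and over all summits it was 73.6%, inside that interval. At control positions 2000 bp from the summits it was 0 of 14, with an upper bound of 21.5%, against 5.90% for all summits. The 5 summits without a motif were S1, S3, S8, S9 and S11, with heights from 8 to 11. Wider inside their peaks, strong matches at a motif p of at most 1e-06 stood 394 bp from the summit of S3 and 267 bp from that of S9. The following lines give these matches, M12 in the peak of S3 with 6 bases on either side and M26 in the peak of S9 without flanks.
M12: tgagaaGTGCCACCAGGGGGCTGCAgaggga
M26: AGGCCAGAAGAGGGCGCCA

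M26 carries the same 12 letters as S5, S7, S10 and S12. Read along the chromosome, the 9 motifs stood in the order + − + − + + + − +, with + for a motif that reads forward on the plus strand. Neighbouring motifs pointed toward each other in 3 of 8 pairs, away from each other in 3 and the same way in 2. These numbers were not set against the genome and were not tested. Of the pairs pointing toward each other, S2 and S4 lay 513000 bp apart, with Dlk1, Meg3, Rtl1, Rian and Mirg between them. The peak of S3 also lies between them, and its motif M12, on the minus strand and outside the 150 bp used here, points toward S2 as well. The other pairs of this kind were close, 5792 bp apart for S5 and S6 and 6340 bp for S12 and S13. Between S10 and S12, both forward, lay 335757 bp with Dio3.

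The question whether CTCF tags rise over the genes themselves was addressed with tags moved by 92 bp toward the fragment centre. An exact binomial test, two-sided, with Benjamini-Hochberg adjustment over 22857 genes compares these libraries and not conditions. Of all genes tested, 30.2% were higher in the CTCF library over the gene body and 8.38% were lower, and of the 6 genes of the domain 0 were called in either direction. At an unadjusted p under 0.05 their number was also 0. The median log2 ratio of the 6 was 0.45, against 0.21 over all genes tested, with 4 of the 6 above 0.

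Among the paternally expressed genes, Dlk1 (chr12:110691033-110701546, plus strand) had 26 CTCF and 15 IgG tags over its body, a ratio of 1.65 (0.842 to 3.35; adjusted p = 0.280, exact binomial test). Rtl1 (chr12:110827404-110838540, minus strand) had 42 and 28 tags, a ratio of 1.43 (0.865 to 2.39; adjusted p = 0.271, exact binomial test). Dio3 (chr12:111517278-111519307, plus strand) is short and had 8 and 4 tags, a ratio of 1.90 (0.510 to 8.64; adjusted p = 0.548, exact binomial test). The CTCF library was higher at each of them, by less than the counting error.

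Of the maternally expressed RNAs, Meg3 (chr12:110779211-110809936, plus strand) had 122 CTCF and 88 IgG tags, a ratio of 1.32 (0.995 to 1.76; p = 0.0530, adjusted p = 0.116, exact binomial test). Rian (chr12:110842155-110899919, plus strand) had 226 and 245 tags, a ratio of 0.878 (0.730 to 1.06; adjusted p = 0.291, exact binomial test). Mirg (chr12:110973191-110987665, plus strand) had 48 and 49 tags, a ratio of 0.933 (0.613 to 1.42; adjusted p = 0.871, exact binomial test). Ratios were below 1 at Rian and Mirg and above 1 at Meg3, and each interval includes 1. The peaks take up a part of the CTCF library, so that the ratio outside all peaks of the genome was 0.897. Scaling by the tags outside peaks raises every log2 ratio by 0.16. Meg3 then stood at 1.47 (1.11 to 1.96) and passed the test, as 38.3% of the 22857 genes did in this direction. Mirg turned to 1.04 (0.683 to 1.58), and Rian stayed below 1 at 0.979 (0.813 to 1.18).

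**Figure D3:**
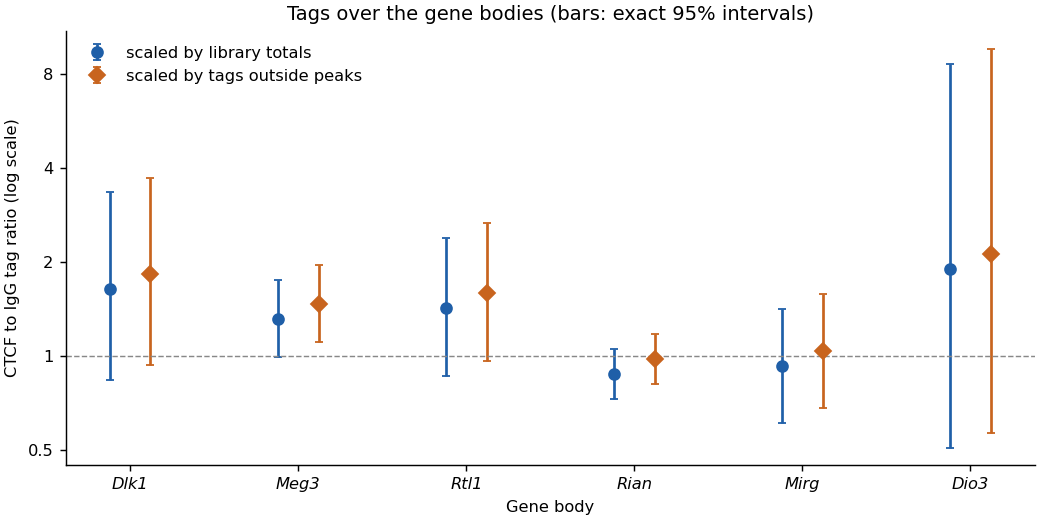
Ratio of CTCF to IgG tags over the body of each of the 6 genes, on a log scale, with exact 95% intervals for counting error, scaled by library totals (circles) or by tags outside the peaks (diamonds). With library totals all 6 intervals include 1, and with tags outside the peaks that of Meg3, 1.11 to 1.96, does not.

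At the gene starts, 1 kb on either side, 3 of the 6 genes had the 10 tags needed for a test and 0 were called, against 13.1% higher and 0.519% lower over the 24079 starts tested. Meg3 had 11 CTCF tags against 5, Rian 6 against 5 and Mirg 11 against 12. The others had 4 tags against 0 at Dlk1, 4 against 3 at Rtl1 and 4 against 2 at Dio3. With 2500 bp on either side, 16.4% of 34543 starts were higher and 2 of the 6 genes were, Meg3 and Dio3. Meg3 then had 36 CTCF and 10 IgG tags, a ratio of 3.43 (1.67 to 7.74; adjusted p = 0.00287, exact binomial test). Dio3 had 21 and 6 tags, a ratio of 3.33 (1.301 to 10.1; adjusted p = 0.0386, exact binomial test). Dlk1 stood at 16 and 5 tags (adjusted p = 0.121, exact binomial test), and Rtl1 and Rian each at 13 and 23, in windows that overlap. The window of Dio3 covers a part of Dio3os. This noncoding gene, which is transcribed from the other strand, had 16 CTCF and 3 IgG tags over its body (adjusted p = 0.0144, exact binomial test).

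Windows of 10 kb were tested without regard to peaks or genes. Of 102 windows of the domain with enough tags, 11 were higher in the CTCF library, close to the background of 9.8%, and 4 were lower, against 5.03%. The 11 were the windows that hold a summit, and of the 91 tested windows without a summit 0 were higher. The summits had been called from the same tags, so the match is no independent result. The highest ratio was that of the window of S13 and S14 with 113 CTCF and 30 IgG tags, at 3.59 (2.38 to 5.56). The window of S3 was the weakest of the 11, with 52 and 25 tags, a ratio of 1.98 (1.21 to 3.33). Between these were the windows of S7, at 65 and 18 tags, of S4, at 77 and 27, and of S12, at 56 and 20. The window with S8 and S9 had 85 and 36 tags, and that of S10 had 86 and 35. S5 and S6 shared a window with 73 and 28 tags, and the windows of S1, S2 and S11 had 80 and 31, 57 and 25, and 63 and 27 tags.

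Over the whole stretch between the peaks of S2 and S3 (chr12:110676611-110988283), which no summit enters, the 1028 CTCF tags and the 1055 IgG tags differed by less than the counting error, a ratio of 0.928 (0.851 to 1.01), and 1.03 (0.948 to 1.13) with the scaling that leaves peaks out. The differentially methylated region that controls the cluster lies between the end of Dlk1 and the start of Meg3. This interval had 213 CTCF and 240 IgG tags, a ratio of 0.845 (0.699 to 1.02), and 0.942 (0.779 to 1.14) with that scaling. It held 13 motifs at p 1e-05 and 0 at p 1e-06. The highest pile of tags in the CTCF library was 7 there, and 8 in the stretch from the Meg3 start to the Mirg end, where the highest of the IgG library was 7.

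Strong motifs were found between the peaks of S2 and S3 at 16.0 per Mb, against 38.9 in the domain and 33.8 in the genome. Of 40 matches at p 1e-06 in the domain, 9 lay within 150 bp of a summit, 22.5% (12.3 to 37.5), against 21% of 89792 in the genome. Of the others, 5 lay between the Dlk1 start and the Mirg end, 3 in Meg3 and 2 in Rian. Their sequences are shown because they are the matches at this threshold in the part of the domain that lacks summits, with the motif in capitals and 6 bases of mm9 on either side.
M7: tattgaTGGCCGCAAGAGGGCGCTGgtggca
M8: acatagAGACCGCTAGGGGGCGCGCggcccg
M9: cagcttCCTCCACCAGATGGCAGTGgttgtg
M10: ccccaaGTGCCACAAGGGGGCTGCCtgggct
M11: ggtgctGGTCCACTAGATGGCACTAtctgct

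M7 (chr12:110780377-110780395, plus strand) and M8 (chr12:110781246-110781264, minus strand) lie 1175 and 2044 bp past the Meg3 start, in sequence that the annotation counts as exon. They point toward each other and hold 2 and 3 CpGs. M9 (chr12:110805001-110805019), 25799 bp past the start, is also exonic in Meg3. M10 and M11 (chr12:110852935-110852953) lie in an intron of Rian, 8833 and 10789 bp past its start. M9, M10 and M11 hold no CpG. The 299 bases of mm9 around M7 (chr12:110780237-110780535, plus strand) have 12 CpGs and 60.2% GC, and are shown as the surroundings of the strong motif nearest to the Meg3 start.
M7 window: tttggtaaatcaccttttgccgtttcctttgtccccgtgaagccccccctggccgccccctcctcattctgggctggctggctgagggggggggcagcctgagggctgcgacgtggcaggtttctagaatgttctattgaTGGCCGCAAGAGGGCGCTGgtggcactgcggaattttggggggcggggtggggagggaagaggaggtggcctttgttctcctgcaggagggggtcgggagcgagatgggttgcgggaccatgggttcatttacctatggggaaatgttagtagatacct

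Within 150 bp of these motifs, CTCF and IgG tags stood at 4 and 0 for M7, 2 and 0 for M8, 8 and 1 for M9, 2 and 0 for M10 and 9 and 0 for M11, at least 2.86-fold higher at M11. S2 and S8, which are in the peak list, had 8 CTCF tags and S9 had 9, and 13.3% of all summits had 9 or fewer. Outside all peaks, 8 or more CTCF tags also stood at 3340 of the 66963 strong motifs of the genome (4.99%). In the domain they stood at 3 of 28 such motifs, of which 2 are M9 and M11. Together, M7 to M11 had 25 CTCF tags against 1 IgG tag, a ratio of 23.8 (3.90 to 977). The ratio was 14.3 (3.62 to 123) with 250 bp on either side and 1.97 (1.23 to 3.25) over the 37 motifs of the stretch at p 1e-05, alternatives chosen after seeing the data. This set was put together after its values had been seen and was not tested as a set. Over the 66963 strong motifs of the genome outside all peaks the ratio was 3.67 (3.62 to 3.71), and over the other 23 such motifs of the domain it was 4.92 (2.63 to 10.03). In an exact binomial test at each strong motif outside the peaks, 0% of 53324 tested in the genome were called after adjustment, the lowest adjusted p being 0.300. Motifs over which a peak had been called from the same tags were left out beforehand, so this 0% depends on the peak calls and is no independent result. At an unadjusted p under 0.05 there were 4727 in the genome (8.86%) and 4 of 24 tested in the domain (16.7%), M3, M9, M11 and M27.

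The letters CCAGAAGAGGGC, searched in columns 4 to 15 of the strong motifs on their own strand, occurred in 17 of the 40 of the domain (42.5%, 28.5 to 57.8) and in 50.9% of those of the genome. Of the 17, 11 stood between S4 and S10, and 0 between the Dlk1 start and the Mirg end. The letters had been picked as the most frequent in these columns among the 9 motifs under a summit of the domain. The share of the 17 under a summit therefore depends on that choice and is no independent result. Under a summit were 4 of the 17 (23.5%, 9.56 to 47.3) and 5 of the 23 others (21.7%, 9.66 to 41.9). In the genome these shares were 8.86% with the letters and 33.5% without. Outside the motif, only the sites under a summit were compared, and the motifs with these letters that lie under no summit were not. Over 50 bases on each side, S5, S7, S10 and S12 were identical at 33% to 48% of positions in their 6 pairs, with a median of 43.5%, and the 5 other sites with a motif at 16% to 37% in 10 pairs, with a median of 27%. These pairs share sites, and the likeness was not tested. S10 carries these letters and was the tallest site of the domain, while M21, with the same letters, had 0 tags in both libraries.

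Beside other imprinted domains, each taken with 100 kb on either side, the density of summits was 13.6 per Mb in this domain, 24.7 around H19 and Igf2, 32.6 in the Kcnq1 domain and 3.66 in the Snrpn and Ube3a domain. Chromosome 12 as a whole had 10.7 and the genome 12.7. These numbers rest on 14, 8, 24 and 12 summits in 1 library and were not tested. The 4 regions are 1.03, 0.324, 0.736 and 3.28 Mb long, so the flanks fill unlike parts of them. The other domains were defined by 3, 5 and 5 genes. Median heights were 11, 11, 13.5 and 15 tags in the same order. Per kb, the CTCF library had 3.38 tags in this domain and the IgG library 3.12, a ratio of 1.03 (0.984 to 1.08), against 1.26 (1.16 to 1.36) around H19 and Igf2, 1.399 (1.33 to 1.47) in the Kcnq1 domain, 0.806 (0.780 to 0.834) in the Snrpn and Ube3a domain and 0.959 (0.954 to 0.963) on chromosome 12. Strong motifs were present at 38.9 per Mb here and 40.1 and 42.1 in the H19 and Kcnq1 domains, and stood at 9.45 per Mb in the Snrpn and Ube3a domain.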

How the data were processed

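CTCF and control IgG ChIP-seq of R1/E ESCs was analysed, 1 library each. The authors deposited aligned tags as counts of 1 per line, without normalization and with no position and strand repeated, together with the MACS 1.4 peaks of the CTCF library with their score and the summits with a signal, the pileup height in tags. The aligner is not given in the sources used here. The genome build is mm9, and no tag or peak ran past a chromosome end of it. From these files, tags were moved by 92 bp, after a fragment length of 185 bp at the 1000 highest scoring peaks. Ratios were scaled by library totals, with exact 95% intervals, and the intervals printed with shares are Wilson intervals. Intervals cover counting error only. Genes, gene starts and 10 kb windows with at least 10 tags in both libraries together were tested with exact binomial tests and Benjamini-Hochberg adjustment over all of them. P-values compare these libraries, not cultures. Log2 values used a pseudocount of 0.5 tags. The motif matrix came from 192 listed CTCF sequences, a pseudocount of 1 and a background of 0.29 per A or T base and 0.21 per C or G base. Python 3.11.15, numpy 2.4.6, scipy 1.17.1 and pandas 2.3.3 were used, and scripts were tested on simulated data. Named sites were the 6 tallest summits, those nearest to the gene starts and the 3 with the lowest scores. Named genes were the 6 genes and those nearest to such a summit, named windows those past an adjusted p of 0.05, and named stretches the 3 longest. The genes, lists and tests were chosen with earlier results of these data known. Alternatives varied score threshold, flank, window, scaling, tag minimum and motif threshold.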

Additional observations from a re-analysis of the deposited data

How the results depend on the processing

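No paired analysis was possible because each group has 1 library, and for the same reason no library could be left out. Of 82 alternatives for 22 results, 60 kept the call or stayed within the interval of the value, and 0 reversed a call. The ratios of Mirg and Rian, which were not called, changed their side of 1 under some. With a score of at least 100 the domain held 6 summits and its longest stretch without one was 549466 bp, and without the flanks it held 9. Over whole peaks the ratio of tags was 9.43 in place of 18.5. Among gene bodies 1 of the 6 genes, Meg3, was called with scaling by tags outside the peaks or with peak tags left out. Over all genes tested, 38.3% and 25.7% were higher under these settings. With 2500 bp on either side 2 starts were called, of Meg3 and Dio3, against 16.4% of all starts. Windows higher in the CTCF library numbered 7 of 51 at 20 kb, where fewer windows are tested, against 14.2% of all windows. Without peak tags they numbered 5 of 102, against 4.79%. Windows lower in the CTCF library numbered 2 of 102 with scaling by tags outside the peaks, against 2.07% of all windows. At 5 kb they numbered 2 of 203, against 1.43%, and without peak tags 2 of 102, against 1.12%. At a motif p of 1e-05, a set that adds weaker motifs, 7.81% (4.30 to 13.8) of the motifs lay under a summit. In the genome it was 10.2% of 258105. The ratio at motifs between the Dlk1 start and the Mirg end was then 1.97 (1.23 to 3.25) over 37 motifs. That alternative was chosen after seeing the data. Scaling by tags outside the peaks moved the share of higher calls over all genes from 78.3% to 90.1%, and over all windows from 66.1% to 85.0%. Where no construction is named, the cause was not tested. Depth limits the values at single sites, where the IgG library has 0 to 3 tags.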

Other observations

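The domain also holds 57 microRNA genes and 23 snoRNA genes. At 1 kb on either side of their starts, where tags could be tested for 44 and 21 of them, 4 microRNA starts were higher in the CTCF library and 1 was lower, and 0 snoRNA starts were called. Among all genes of the domain, higher starts numbered 4 of 69, and 3 of 67 with tags not moved. They numbered 3 of 88 with no minimum above 1 tag and 10 of 88 with 2500 bp on either side. Over all starts the shares were 13.1%, 13.2%, 8.14% and 16.4% in this order. The 5 called microRNA starts are named after their values were seen. Mir434, Mir432 and Mir136, which lie opposite to Rtl1 on the other strand, had 16, 19 and 18 CTCF tags against 1, 1 and 2 IgG tags (adjusted p = 0.00377, 0.000763 and 0.00524, exact binomial test), in windows that overlap and share tags. Mir1188 in Rian had 16 against 3 (adjusted p = 0.0357, exact binomial test), and AC152063.3 had 0 against 10 (adjusted p = 0.00857, exact binomial test). The 4 higher starts, out of 69 of all genes tested in the domain, stand beside a background of 13.1%, and no deposited summit or strong motif lies in the windows of the Rtl1 group.

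The 4 windows of 10 kb with fewer CTCF than IgG tags held 24 against 53 tags at the end of Rian, a ratio of 0.431 (0.255 to 0.711), 18 against 37 and 17 against 36 between S3 and S4, and 12 against 40 between S10 and S11, a ratio of 0.286 (0.136 to 0.555). With scaling by tags outside the peaks the number of lower windows was 2 of 102, against 2.07% of all windows.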
